A study of Mus musculus with 6 samples.

Results

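The genes described here encode proteases that cut the extracellular matrix, together with their inhibitors, in the mouse liver. They were chosen by name from the gene count table as symbols starting with Adamts, or with Mmp, Adam or Timp followed by a digit, plus Plau, Plaur and Plat. Of 86 such rows, 58 had 10 or more counts summed over the 6 mice and are the members, against 16037 of the 26608 rows of the whole table. Of the 58 members, 43 passed the expression filter and were tested. At the edge of the rule of 10 counts, Timp4 was kept with 10 counts, while Adamts8 and Mmp7 were left out with 9 counts each and Mmp24 with 8. Of the 28 rows left out, 11 had no count at all.

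Messenger RNA of whole liver was sequenced from 6-week-old mice, 3 of the genotype LiKM and 3 of the genotype LiK. These names are not explained in the labels. By what is known of the published study, both genotypes share an engineered change in hepatocytes, and LiKM mice in addition lack Mdm2, the ubiquitin ligase that keeps p53 low, in the same cells. Neither the sex of the mice nor the promoter that drives recombination is stated in the sources. Libraries held 19909993 to 20762712 counts in LiKM and 20778717 to 24874343 in LiK, and the members took 0.0565% to 0.0706% of them in LiKM and 0.0395% to 0.0471% in LiK. Mdm2 lay at 122, 125 and 60.5 CPM in LiKM livers, against 28.7, 29.0 and 28.6 CPM in LiK livers, where CPM are counts scaled to a library of 1000000 (log2 fold change 1.83, SE 0.27, adjusted p = 0.0196). Counts over a whole gene do not show a deletion within it, so Mdm2 does not check the labels. Trp53 was not called, with a log2 fold change of 0.22 (SE 0.20, adjusted p = 0.575). By the chi-square per gene between libraries, LiKM 3 stood apart within LiKM (80.8 and 74.3 against LiKM 1 and LiKM 2, which differed by 37.0), and LiK 3 within LiK (125 and 104 against LiK 1 and LiK 2, which differed by 36.1). The 11 hepatocyte markers with a row, of 12 listed, summed to 139278 to 161410 CPM in LiKM and 132655 to 160522 CPM in LiK, and each of the 11 was detected in every library.

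Matrix metalloproteinases (MMPs) are zinc enzymes that are made as inactive precursors and cut collagens, elastin and other matrix proteins, either as secreted or as membrane-bound forms. Tissue inhibitors of metalloproteinases (TIMPs) block them, and the plasminogen activators, held at the cell surface by their receptor, make plasmin, which cuts matrix and activates some MMP precursors. ADAMs are membrane-bound relatives that mainly shed the outer parts of other membrane proteins, whereas the secreted ADAMTS enzymes process procollagens and cut proteoglycans. In the liver, stellate cells and macrophages are known sources of several of them during injury and scarring.

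All members called by edgeR were higher in LiKM livers. The quasi-likelihood test of edgeR called 11 of the 43 members tested higher in LiKM and 0 lower, where a call is a Benjamini-Hochberg adjusted p under 0.05 over all 13537 genes tested. The 11 were Mmp12, Mmp14, Timp1, Plaur, Adam8, Adam15, Adam19, Adamts1, Adamts2, Adamts15 and Adamtsl2. That is 25.6% of the members tested, where 5.11% of all genes tested were called higher and 0.813% were called lower. At an unadjusted p under 0.05, edgeR had 23 members higher and 1 lower, where 15.4% of all genes were higher and 7.05% lower at that level. The lower one was Adam11, which DESeq2 also called lower. The limma-voom fit, run throughout with a quality weight per library, called 0 lower. The median log2 fold change (LiKM over LiK throughout) was 0.82 over the members tested and −0.0034 over all genes tested. All 3 LiKM libraries lay above all 3 LiK libraries in 23 of the 43 members, against 17.8% of all genes, and below them in 2 members, against 11.8% of all genes.

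The expression filter bears on these counts. Members that were scarce in LiK could pass it only if they were more abundant in LiKM, so their share of calls is no measure of the family. In 29 members all 6 libraries reached the filter's level, and 6 of these (20.7%) were called higher, against 4.08% of the genes that did so over the whole table. Their median log2 fold change was 0.56, against −0.02 for those genes. A further 11 members reached that level in every LiKM library but not in every LiK library, and 5 of them (Adam8, Adam19, Mmp12, Plaur and Timp1) were called, a share of 45.5% beside 23.5% of all such genes. The reverse held for 0 members and for 160 genes of the whole table. The remaining 3 tested members (Adam4, Adam12 and Adamts6) reached it in a mix of libraries.

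**Figure D1:**
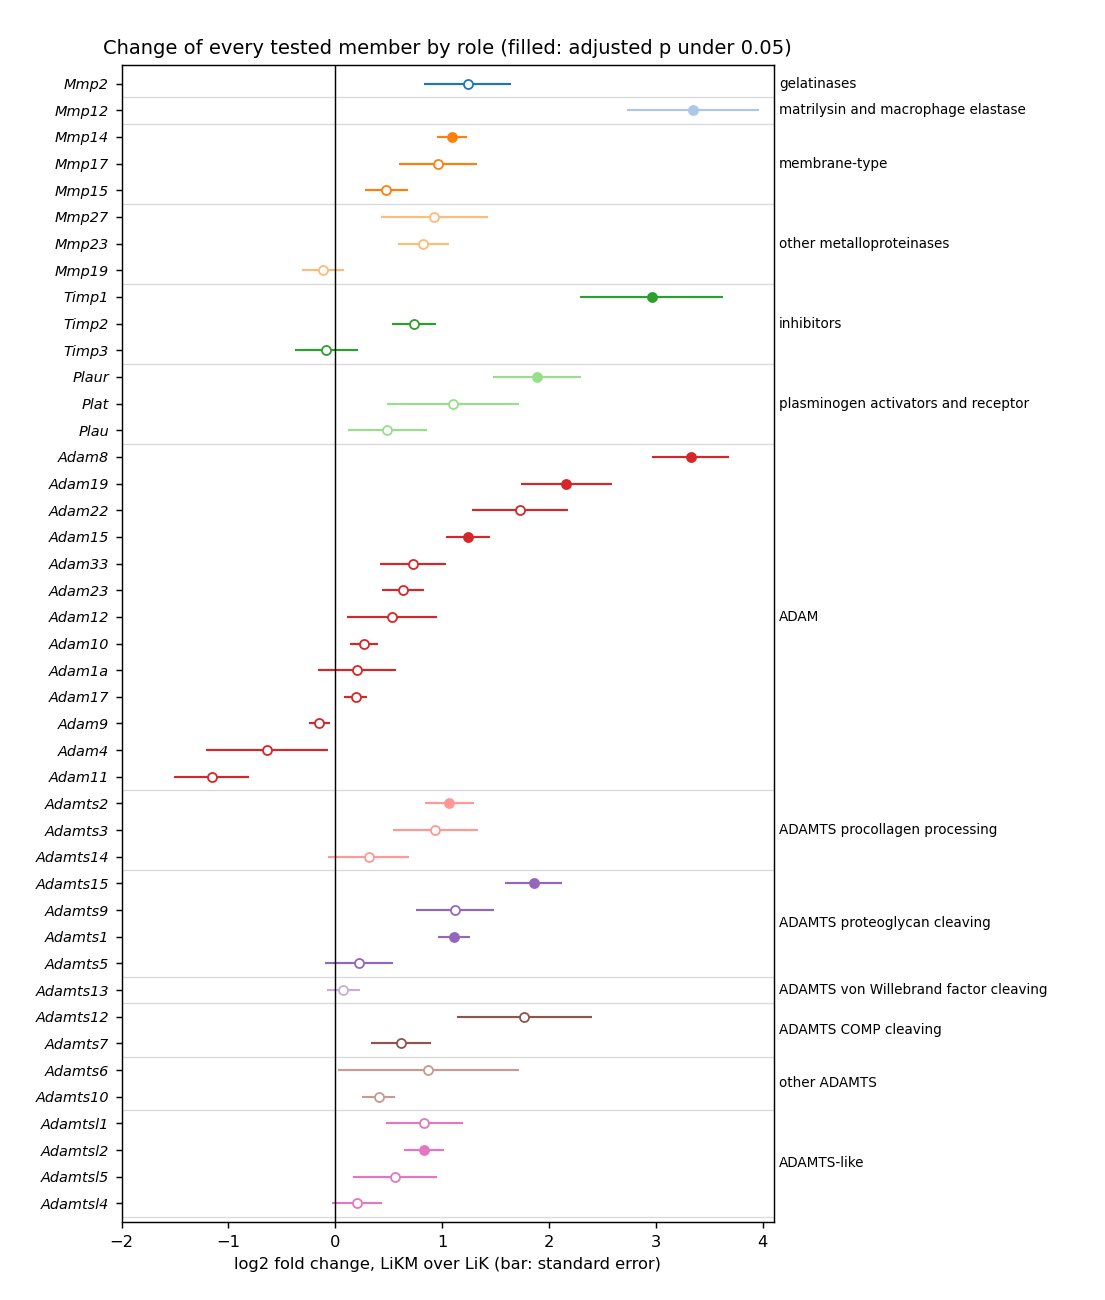
Log2 fold change, LiKM over LiK, of each of the 43 members tested, grouped by role. Points are the fitted values, bars their standard errors, and filled points the 11 members with an adjusted p under 0.05, all of which lie right of 0, while Adam11, Adam4, Adam9, Mmp19 and Timp3 lie left of it.

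These are counts of bulk tissue, in which more cells of a type and more RNA per cell cannot be told apart. Marker sums of some other cell types differed between genotypes. Summed levels of 12 stellate cell and fibroblast markers lay between 670 and 730 CPM in LiKM and between 254 and 415 CPM in LiK, with 5 of 12 called higher. Those of 11 macrophage and monocyte markers lay between 253 and 325 CPM in LiKM and between 167 and 204 CPM in LiK, with 4 of 11 called higher. For 12 T and natural killer cell markers the sums were 15.6 to 21.7 CPM in LiKM and 4.14 to 7.42 CPM in LiK, with 8 of 10 tested called higher. Sums of the neutrophil list (6.77 to 19.96 CPM in LiKM, 5.79 to 15.6 CPM in LiK), the cholangiocyte list (111 to 234 CPM in LiKM, 82.9 to 255 CPM in LiK) and the endothelial list (238 to 355 CPM in LiKM, 251 to 280 CPM in LiK) overlapped between genotypes. A sum is ruled by its most abundant markers. Median log2 fold changes of tested markers were 1.13 for the stellate, 0.97 for the macrophage and 2.78 for the T and natural killer cell list. They were 1.05 for the cholangiocyte list (8 tested), 0.52 for neutrophils (4 tested), 0.21 for the endothelial list (10 tested) and −0.26 for hepatocytes. Of these 4 lists, 0 markers were called. The neutrophil list holds Mmp8, which is also a member. None of these markers was at 0 in all 6 libraries, and 4 neutrophil, 2 T and natural killer cell and 1 cholangiocyte markers were at 0 in at least 1 library. The part of these cells in the results was not tested.

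Promoters of several metalloproteinase genes are textbook targets of AP-1, the dimer of Fos and Jun proteins, often beside an ETS element, and the windows below show where such letters stand in members that were higher in LiKM. RefSeq windows of GRCm38.p6, from 250 bases before to 50 bases after an annotated start, were at hand for 27 of the 43 members tested, 10 of them called. They were searched on both strands for the AP-1 letters TGANTCA, the ETS letters AGGAAG and the Sp1 letters GGGCGG. The TATA letters TATAAA and the p53 half-site consensus were searched for in the same way. The AP-1 letters stood in a window of Mmp12, Plaur and Adam19, all of them called. That is 3 of the 27 members (11.1%), against 6.54% of the 9520 genes tested that had a window. The letters TGAGTAA, known as the AP-1 element of the TIMP1 gene and added to the search after the windows were seen, stood in the Timp1 window and in 1.96% of those genes. AGGAAG stood in 10 of the 27 members (37.0%, against 37.8% of those genes) and GGGCGG in 21 (77.8%, against 66.6%). TATAAA stood in 3 (11.1%, against 9.41%), also all called (Adamts1, Adamtsl2 and Mmp12). The p53 half-site stood in 2 (7.41%, against 8.24%), neither of them called. A match describes letters, not binding. Among members too scarce to be tested, only Mmp13 and Mmp3 were looked at, and both held AP-1, ETS and TATA letters. They were picked by name, and without the filter they had the highest log2 fold changes of those members (2.26 and 5.63, neither called). The other members not tested were not searched, so no share stands beside these matches. Mmp13 also held a p53 half-site. Printed are the windows of called members that held the AP-1 letters or TGAGTAA, and that of Mmp13. The window of Mmp14, the most abundant called member, is also printed and held no AP-1 letters.
Mmp12, the later of its 2 starts, chr9:7347124-7347423, plus strand, AP-1 and TATA letters in capitals: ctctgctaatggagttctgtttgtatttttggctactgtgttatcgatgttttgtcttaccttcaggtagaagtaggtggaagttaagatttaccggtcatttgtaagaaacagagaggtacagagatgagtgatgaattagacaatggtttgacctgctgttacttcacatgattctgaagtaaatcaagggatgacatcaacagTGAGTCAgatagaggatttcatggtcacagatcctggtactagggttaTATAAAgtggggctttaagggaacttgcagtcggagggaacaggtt
Mmp13, chr9:7272264-7272563, plus strand, AP-1 and ETS letters in capitals: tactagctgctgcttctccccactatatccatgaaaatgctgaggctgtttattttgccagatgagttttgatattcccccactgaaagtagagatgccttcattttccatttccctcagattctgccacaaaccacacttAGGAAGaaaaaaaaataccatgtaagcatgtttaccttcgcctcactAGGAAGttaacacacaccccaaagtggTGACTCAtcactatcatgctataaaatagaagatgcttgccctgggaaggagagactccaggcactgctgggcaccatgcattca
Plaur, chr7:24462233-24462532, plus strand, AP-1 letters in capitals: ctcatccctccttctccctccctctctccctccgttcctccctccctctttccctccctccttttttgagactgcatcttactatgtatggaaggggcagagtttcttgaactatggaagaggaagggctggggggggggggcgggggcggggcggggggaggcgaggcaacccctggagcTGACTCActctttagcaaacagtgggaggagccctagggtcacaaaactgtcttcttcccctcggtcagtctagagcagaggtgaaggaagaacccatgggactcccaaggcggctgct
Adam19, the middle of its 3 starts, chr11:46055734-46056033, plus strand, AP-1 letters in capitals: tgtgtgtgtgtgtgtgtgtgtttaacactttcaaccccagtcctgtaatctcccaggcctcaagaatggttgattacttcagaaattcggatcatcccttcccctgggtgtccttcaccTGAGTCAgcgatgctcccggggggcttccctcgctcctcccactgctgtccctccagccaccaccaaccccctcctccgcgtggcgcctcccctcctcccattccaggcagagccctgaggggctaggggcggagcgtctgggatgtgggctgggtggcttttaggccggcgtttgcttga
Timp1, chrX:20869916-20870215, plus strand, TGAGTAA and ETS letters in capitals: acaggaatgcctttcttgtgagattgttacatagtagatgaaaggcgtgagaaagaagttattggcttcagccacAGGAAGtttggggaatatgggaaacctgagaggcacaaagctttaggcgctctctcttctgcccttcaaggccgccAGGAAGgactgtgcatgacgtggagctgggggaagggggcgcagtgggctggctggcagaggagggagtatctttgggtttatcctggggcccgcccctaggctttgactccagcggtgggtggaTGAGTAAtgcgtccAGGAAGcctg
Mmp14, chr14:54431348-54431647, plus strand, Sp1 letters in capitals: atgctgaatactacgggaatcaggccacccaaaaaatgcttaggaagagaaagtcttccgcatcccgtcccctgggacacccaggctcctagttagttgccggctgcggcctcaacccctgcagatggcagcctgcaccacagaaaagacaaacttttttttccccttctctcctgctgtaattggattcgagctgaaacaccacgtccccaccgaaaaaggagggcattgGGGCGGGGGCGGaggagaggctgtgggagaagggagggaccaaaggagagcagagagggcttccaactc

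Position differed among these windows. The AP-1 letters began 44 bases before the start in Mmp12, 35 in Mmp13, 46 in Mmp3, 69 in Plaur and 131 in Adam19. TATAAA began 32 bases before the start in Adamts1 and 30 in Adamtsl2, but 16 in Mmp13, 7 in Mmp3 and 5 bases into the transcript in Mmp12. Distances rest on the annotated starts, whose use in these livers was not tested. In Timp1 the variant element began 27 bases into the transcript, followed by ETS letters at 41. In Mmp14 the search found 2 adjoining Sp1 matches, which began 19 and 13 bases before the start.

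**Figure D2:**
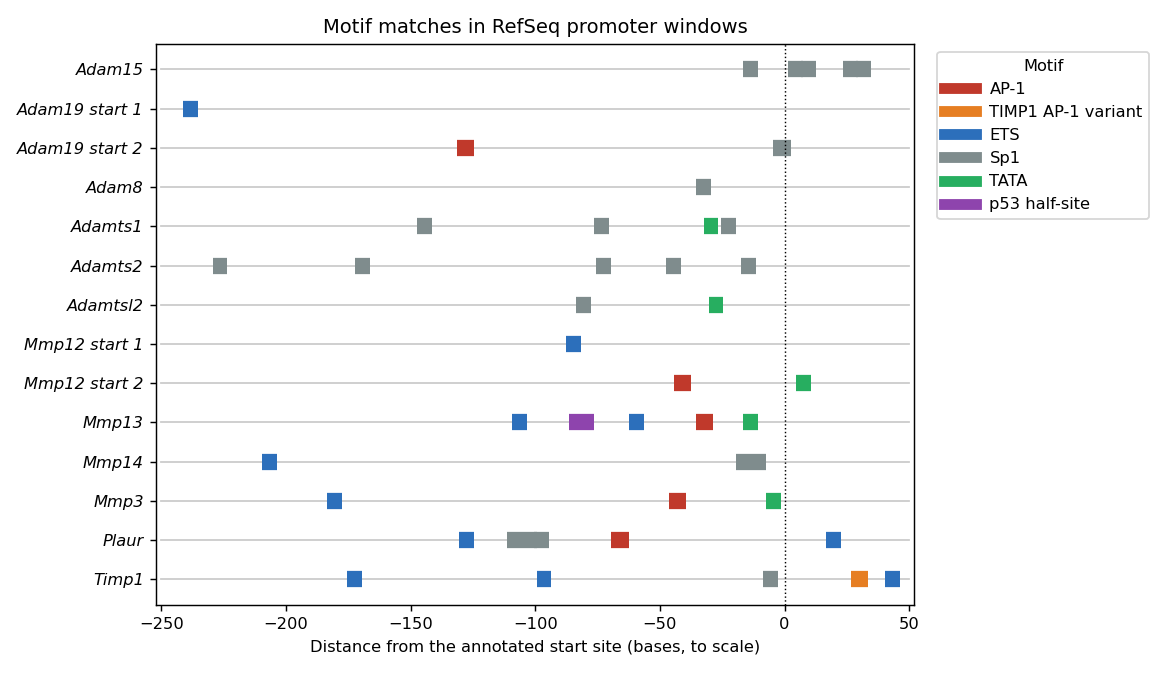
Matches of 6 motifs in RefSeq promoter windows of called members and of Mmp3 and Mmp13, by distance in bases from the annotated start; windows without a match are not drawn. AP-1 letters appear in 1 window each of Adam19, Mmp12, Mmp13, Mmp3 and Plaur, and Sp1 letters in windows of 9 of the 10 called members with a window. Mmp3 and Mmp13 were not tested for expression and were picked by name.

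Membrane-type and gelatinase genes. Mmp14 encodes the main membrane-type collagenase, which also activates the precursor of Mmp2 at the cell surface with the help of Timp2. It lay at 45.8, 57.4 and 61.5 CPM in LiKM livers, against 23.4, 26.7 and 27.003 CPM in LiK livers. The lowest LiKM liver stood well above the highest LiK liver, with a log2 fold change of 1.09 (SE 0.14, edgeR adjusted p = 0.0146). The Mmp14 call was lost without LiKM 2, LiK 1 or LiK 2 (adjusted p = 0.0619, 0.0702 and 0.0616). Its substrate gene Mmp2, for gelatinase A, was at 11.8, 10.5 and 10.4 CPM in LiKM, against 4.53, 1.91 and 7.35 CPM in LiK. The Mmp2 groups did not overlap, but the LiK livers spread widely. Its edgeR adjusted p of 0.133 missed the threshold (log2 fold change 1.24, SE 0.41). DESeq2 (adjusted p = 0.0334) and limma-voom (log2 fold change 1.78, adjusted p = 0.0321) called Mmp2, but limma-voom weighted the libraries unequally. Without LiK 3, edgeR gave a log2 fold change of 1.75. Mmp15, another membrane-type enzyme gene and the member with the most counts, had 121, 142 and 82.8 CPM in LiKM, against 77.3, 91.0 and 79.8 CPM in LiK. The groups overlapped through LiKM 3, and Mmp15 was called only when that library was left out (log2 fold change 0.65, adjusted p = 0.0442, against 0.48 and 0.208 with all 6). Mmp17, whose product is held to the membrane by a lipid anchor, had a log2 fold change of 0.96 (SE 0.36, adjusted p = 0.175). Mmp9, for gelatinase B of neutrophils and macrophages, had 9, 11 and 17 counts in LiKM, against 7, 10 and 4 in LiK, and was not tested, nor was Mmp25 with 18 counts in all.

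The secreted MMP genes of 1 chromosomal cluster. On mouse chromosome 9, 10 Mmp genes neighbour each other with no other protein-coding gene of RefSeq between them. Mmp12, for the elastase of macrophages, was the member of this cluster with the most counts, with 53, 67 and 86 in LiKM livers, against 1, 13 and 6 in LiK livers. Each LiKM liver held several times the highest LiK count, with a log2 fold change of 3.35 (SE 0.62, adjusted p = 0.0297). Among the omissions the Mmp12 call held without LiKM 3 (adjusted p = 0.0496) and was lost in the other 5 (0.053 to 0.0898). Mmp13, for the main interstitial collagenase of rodents, had 24, 9 and 31 counts in LiKM, against 2, 9 and 2 in LiK. The counts of LiKM 2 and LiK 2 were equal, and without the expression filter its log2 fold change was 2.26 (SE 0.73) and not called (adjusted p = 0.13). Mmp3, for stromelysin 1, had 14, 1 and 3 counts in LiKM and 0 in each LiK library, so most of its signal was that of LiKM 1. Mmp8, for the neutrophil collagenase, had 1, 4 and 5 counts in LiKM, against 4, 4 and 2 in LiK. Mmp27 had 20, 19 and 37 counts in LiKM, against 21, 11 and 8 in LiK, and its groups overlapped (log2 fold change 0.93, SE 0.50, adjusted p = 0.324). Mmp7, Mmp1a, Mmp1b, Mmp10 and Mmp20, the remaining 5 of the cluster, were under the rule of 10 counts.

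**Figure D3:**
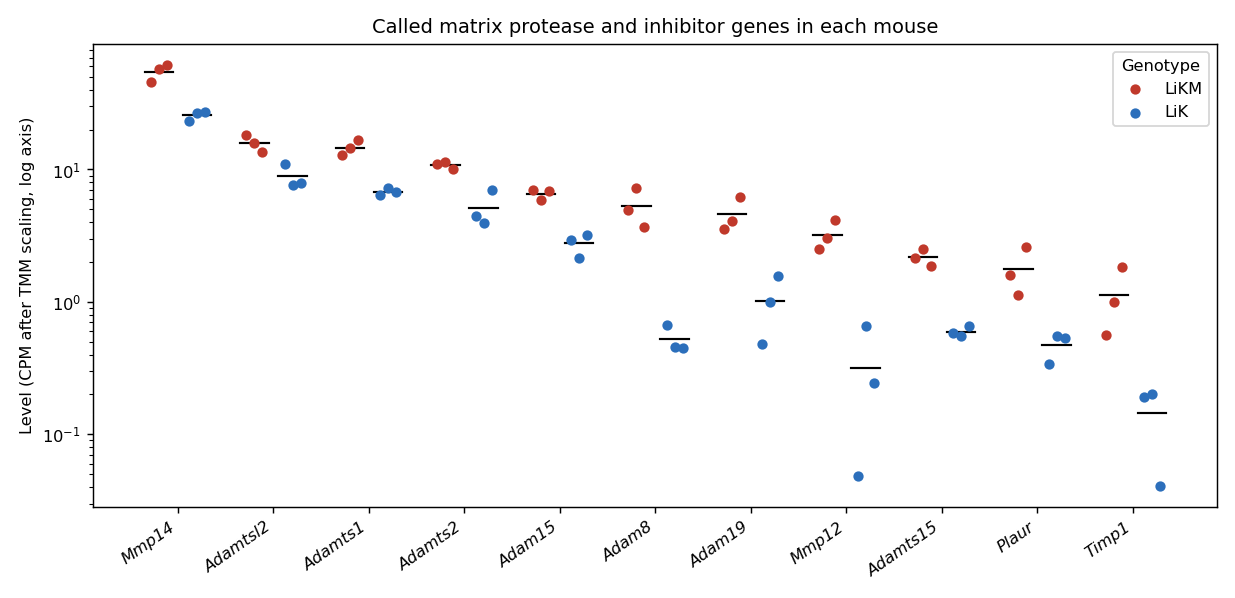
Level of the 11 called members in each mouse, as CPM on a log axis, with LiKM left of LiK and a line at each group mean. No LiK point reaches the LiKM points of the same gene; the gap is widest for Adam8 and Mmp12 and narrowest for Adamtsl2.

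Other MMP genes. Mmp19, for a basement membrane protease expressed widely in healthy tissue, was at 72.3, 61.0 and 42.7 CPM in LiKM, against 65.9, 68.5 and 56.2 CPM in LiK. LiKM 3 was the lowest of the 6 and LiKM 1 the highest (log2 fold change −0.11, SE 0.20, adjusted p = 0.766), and 22.3% of its exon bases in the GENCODE M21 annotation overlap Tmem198b on the other strand. Mmp23, for an MMP that lacks the usual hemopexin-like domain, was at 3.05, 2.36 and 2.22 CPM in LiKM, against 1.49, 1.46 and 1.35 CPM in LiK. The Mmp23 groups were apart with little spread, though not called (log2 fold change 0.82, SE 0.24, adjusted p = 0.0939). Mmp11 and Mmp28 had 48 and 37 counts in all and were not tested. Reads of all 15 Mmp members together came to 261, 281 and 210 CPM in LiKM, against 175, 193 and 174 CPM in LiK. Mmp14, Mmp15 and Mmp19 gave 88.8% to 92.9% of that sum in LiKM and 93.7% to 96.5% in LiK.

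The inhibitors. Timp1, whose product blocks most secreted MMPs and is a textbook marker of liver scarring, had 12, 22 and 38 counts in LiKM livers, against 4, 4 and 1 in LiK livers. Every LiKM count was higher, but the counts were few, at 0.564, 0.998 and 1.83 CPM in LiKM and 0.193, 0.201 and 0.041 CPM in LiK. The log2 fold change of Timp1 was 2.96 (SE 0.67, adjusted p = 0.0467), and its call was lost in each of the 6 omissions of a library (adjusted p = 0.0515 to 0.135). Timp2, for the inhibitor that takes part in Mmp2 activation, was at 24.2, 19.7 and 19.2 CPM in LiKM, against 9.97, 11.4 and 16.5 CPM in LiK. The Timp2 groups did not overlap, and its log2 fold change of 0.74 (SE 0.21, adjusted p = 0.0892) was not called. Timp2 was called without LiK 3 (0.98, adjusted p = 0.0475), by DESeq2 (adjusted p = 0.0304) and by limma-voom (adjusted p = 0.0311). Timp3, for the matrix-bound inhibitor that also blocks Adam17, was at 39.2, 34.2 and 17.7 CPM in LiKM, against 26.3, 39.7 and 30.5 CPM in LiK. Its groups overlapped (log2 fold change −0.08, SE 0.29, adjusted p = 0.89), LiKM 3 was lowest, and the sign turned without that library (0.17) or without LiK 2 (0.09). By GENCODE M21, 21.3% of the exon bases of Timp3 overlap Syn3 on the other strand. Timp4 had 1 count in LiKM libraries and 9 in LiK libraries, 8 of them in LiK 1. The ratio of Mmp14 to Timp2 CPM was 1.89, 2.91 and 3.20 in LiKM, against 2.34, 2.35 and 1.63 in LiK, so it overlapped between genotypes.

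Plasminogen activation. Plaur encodes the receptor that holds urokinase at the cell surface, and it was at 1.60, 1.13 and 2.60 CPM in LiKM, against 0.337, 0.554 and 0.533 CPM in LiK. Every LiKM value was higher than every LiK value, with a log2 fold change of 1.89 (SE 0.41, adjusted p = 0.0445), and the call was lost in each of the 6 omissions (adjusted p = 0.0792 to 0.152). Plau, for urokinase itself, was at 1.36, 1.81 and 1.69 CPM in LiKM, against 0.770, 0.906 and 1.76 CPM in LiK. LiK 3 lay within the LiKM range, and the log2 fold change was 0.48 (SE 0.37, adjusted p = 0.482). Plat, for the tissue-type activator, had a log2 fold change of 1.10 (SE 0.62, adjusted p = 0.343), with overlapping values of 0.987, 0.817 and 2.27 CPM in LiKM, against 0.289, 0.403 and 1.15 CPM in LiK.

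ADAM genes. Of 13 tested, 3 were called higher. Adam8, for a sheddase of leukocytes, was at 4.93, 7.31 and 3.66 CPM in LiKM livers, against 0.674, 0.453 and 0.451 CPM in LiK livers. The LiK livers were uniformly low, and the log2 fold change of Adam8 was 3.32 (SE 0.36, adjusted p = 0.0107). It lost its call only without LiK 1 or LiK 2 (adjusted p = 0.0506 and 0.0554). Adam19, whose product cuts neuregulin precursors, was at 3.57, 4.08 and 6.17 CPM in LiKM, against 0.482, 1.007 and 1.56 CPM in LiK. Its log2 fold change was 2.16 (SE 0.43, adjusted p = 0.0352), and among the omissions its call held without LiK 3 (0.0472) and was lost in the other 5 (0.0568 to 0.12). Adam15, for an ADAM of epithelial and endothelial cells, was at 7.001, 5.85 and 6.85 CPM in LiKM, against 2.94, 2.16 and 3.20 CPM in LiK. The groups lay far apart (log2 fold change 1.24, SE 0.21, adjusted p = 0.0248), and the call was lost without LiKM 1, LiKM 2, LiK 1 or LiK 2 (adjusted p = 0.0628, 0.0789, 0.0896 and 0.0818). Annotated exons overlap on opposite strands for 20.6% of the exon bases of Adam15 (4731419I09Rik) and for 8.25% and 6.75% of those of Adam19 (Gm16033 and Gm16034), and with the strand setting of the counting not given, reads of such partners cannot be told apart.

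The ADAM genes with the most reads moved little. Adam9, for a broadly expressed sheddase, was at 73.4, 73.6 and 80.9 CPM in LiKM, against 81.2, 89.4 and 82.1 CPM in LiK. The Adam9 groups were apart by a narrow margin, with a log2 fold change of −0.15 (SE 0.10, adjusted p = 0.418) that became 0.0093 with library totals. Adam10, which cuts Notch receptors, and Adam17, which releases tumour necrosis factor and epidermal growth factor receptor ligands, had log2 fold changes of 0.27 (SE 0.13, adjusted p = 0.278) and 0.19 (SE 0.11, adjusted p = 0.346). Adam11, Adam22 and Adam23 encode members with no protease activity that are known from neurons. Adam11 was at 3.85, 3.81 and 5.59 CPM in LiKM, against 6.16, 15.05 and 8.37 CPM in LiK. All LiKM values of Adam11 were lower (log2 fold change −1.16, SE 0.35), without a call by edgeR (adjusted p = 0.105), while DESeq2 called it lower (adjusted p = 0.015). Adam22 and Adam23 had the other sign, with log2 fold changes of 1.73 (SE 0.45, adjusted p = 0.0666) and 0.63 (SE 0.20, adjusted p = 0.115), and edgeR called neither. Adam22 was called with library totals (adjusted p = 0.045) and by limma-voom (adjusted p = 0.045). Adam33, Adam12, Adam1a and Adam4 had log2 fold changes of 0.73, 0.53, 0.20 and −0.64 and were not called, and 63.7% of the exon bases of Adam1a overlap Gm42878 on the same strand. Adam2, Adam7 and Adam28 had 24, 33 and 20 counts in all and were not tested.

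ADAMTS genes. Adamts2, Adamts3 and Adamts14 encode the enzymes that remove the amino-terminal propeptide of procollagens. Adamts2 was at 10.9, 11.5 and 10.03 CPM in LiKM, against 4.48, 3.93 and 7.02 CPM in LiK. LiK 3 was the nearest to the LiKM livers, and the log2 fold change of 1.07 (SE 0.23, adjusted p = 0.0443) was called only without LiK 3 (adjusted p = 0.032) among the omissions, with 0.0674 to 0.149 in the other 5. Adamts3 and Adamts14 had log2 fold changes of 0.93 (SE 0.40, adjusted p = 0.216) and 0.31 (SE 0.38, adjusted p = 0.664). That of Adamts14 was −0.098 without LiKM 3.

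Proteoglycan-cleaving ADAMTS genes held 2 calls among 4 tested. Adamts1, for an enzyme that cuts versican and aggrecan, was at 12.8, 14.5 and 16.6 CPM in LiKM, against 6.40, 7.20 and 6.73 CPM in LiK. The LiK livers were within 1 CPM of each other, and the log2 fold change was 1.11 (SE 0.15, adjusted p = 0.0153). The call of Adamts1 was lost without LiKM 2, LiK 1 or LiK 2 (adjusted p = 0.0667, 0.0707 and 0.0616). Adamts15, for a versican-cleaving enzyme, was at 2.16, 2.50 and 1.88 CPM in LiKM, against 0.578, 0.554 and 0.657 CPM in LiK. Both groups were tight (log2 fold change 1.86, SE 0.27, adjusted p = 0.0184), and the call was lost without LiKM 2, LiK 1 or LiK 2 (0.0764, 0.0815 and 0.0778). Adamts9, which also cuts versican, was at 2.58, 3.09 and 5.26 CPM in LiKM, against 1.83, 1.11 and 2.05 CPM in LiK, and was not called by edgeR (log2 fold change 1.12, SE 0.36, adjusted p = 0.124) but was by DESeq2 (adjusted p = 0.0493). Adamts5, for the main aggrecanase of mouse cartilage, had a log2 fold change of 0.22 (SE 0.32, adjusted p = 0.725). Adamts4, for another aggrecanase, had 8, 8 and 26 counts in LiKM, against 2, 0 and 7 in LiK, and was not tested.

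The remaining ADAMTS genes were not called by edgeR. Adamts13, which in the liver is made by stellate cells and cuts von Willebrand factor in the blood, was at 7.001, 7.71 and 7.95 CPM in LiKM, against 6.21, 7.85 and 7.47 CPM in LiK. It differed by less than the spread between mice (log2 fold change 0.07, SE 0.16, adjusted p = 0.813). The stellate cell list as a whole summed higher in every LiKM library, and a link to Adamts13 was not tested. Adamts7 and Adamts12, known to cut cartilage oligomeric matrix protein, had log2 fold changes of 0.62 (SE 0.28, adjusted p = 0.249) and 1.77 (SE 0.63, adjusted p = 0.154). Adamts12 lay at 0.987, 1.63 and 0.771 CPM in LiKM, against 0.193, 0.101 and 0.657 CPM in LiK. These values did not overlap, and limma-voom called it (log2 fold change 2.61, adjusted p = 0.0364). Adamts10, which acts on fibrillin microfibrils, had 0.41 (SE 0.15, adjusted p = 0.177). Adamts6 had 7, 7 and 55 counts in LiKM, against 9, 12 and 18 in LiK, so that 1 mouse gave its log2 fold change of 0.87 (SE 0.85, adjusted p = 0.587), which was −0.89 without LiKM 3. Adamts16 and Adamts17 had 17 and 20 counts in all and were not tested.

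ADAMTS-like genes encode relatives that lack the protease domain and bind the matrix. Adamtsl2, whose product binds fibrillin microfibrils, was at 18.1, 15.8 and 13.5 CPM in LiKM, against 10.98, 7.70 and 7.96 CPM in LiK. The groups were apart, with a log2 fold change of 0.83 (SE 0.19) and an adjusted p of 0.0498 at the very edge of the threshold. The call of Adamtsl2 was lost in each of the 6 omissions (adjusted p = 0.0545 to 0.163) and with median-ratio scaling (0.0582). Adamtsl1, Adamtsl4 and Adamtsl5 had log2 fold changes of 0.83 (SE 0.36, adjusted p = 0.229), 0.20 (SE 0.23, adjusted p = 0.654) and 0.56 (SE 0.39, adjusted p = 0.447), and Adamtsl3, with 37 counts in all, was not tested.

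Levels of different genes were compared after division by exon length from GENCODE M21, as CPM per kb. In LiKM the members ranked Mmp15 (21.4), Adam9 (18.5), Mmp19 (16.6), Mmp14 (9.21), Adam10 (5.56) and Timp2 (5.41). In LiK the order was Adam9 (20.5), Mmp19 (18.0), Mmp15 (15.3), Adam10 (4.62), Mmp14 (4.31) and Timp3 (3.95). The ranges of Mmp15, Adam9 and Mmp19 over mice overlapped in LiKM. In LiK those of Mmp19 and Mmp15 overlapped, and Adam9 lay just above both. Called members stood mostly lower, from 9.21 CPM per kb for Mmp14 down to 0.210 for Adamts15 in LiKM, against 4.31 and 0.0575 in LiK. Timp1 ranked 16 of 43 in LiKM (1.27) and 29 in LiK (0.163), and Adam8 ranked 18 in LiKM (1.14) and 32 in LiK (0.113).

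**Figure D4:**
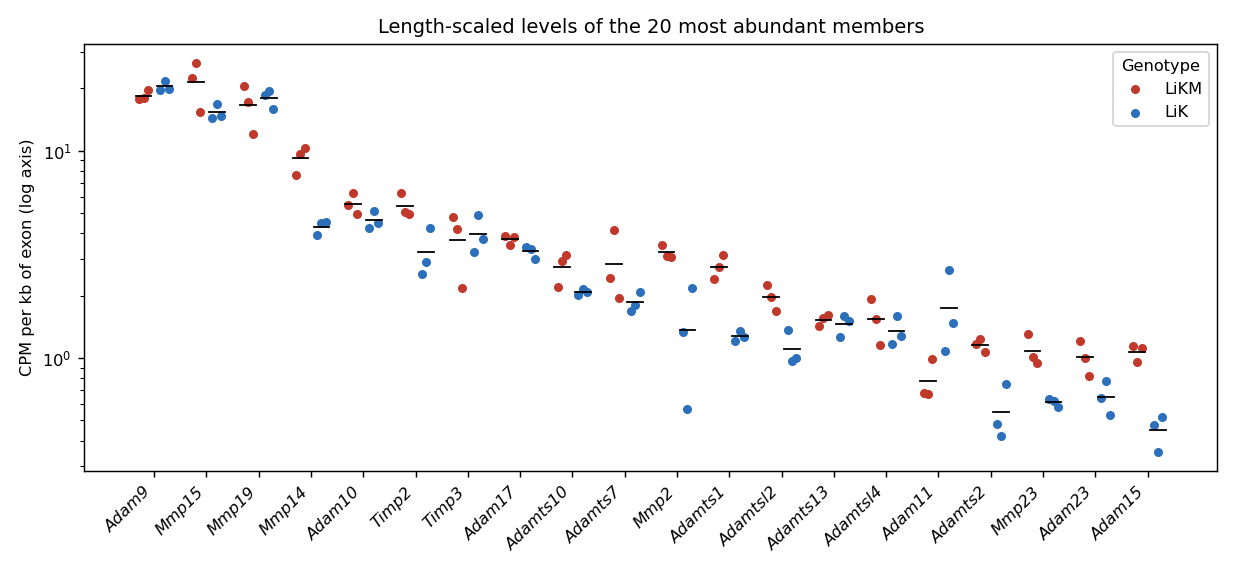
CPM per kb of exon, on a log axis, of the 20 members with the highest mean over all 6 livers, with LiKM left of LiK and lines at group means. Adam9, Mmp15 and Mmp19 lead in both genotypes, and the LiKM points of Mmp14 all lie above its LiK points.

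Partners of the system were read from a list of 65 genes, of which 64 had a row and 57 were tested. Of the 57, 7 (12.3%) were called higher and 0 lower by edgeR, beside the 5.11% and 0.813% of all genes, and their median log2 fold change was 0.29. At an unadjusted p under 0.05, 18 were higher and 0 lower, beside 15.4% and 7.05% of all genes, and DESeq2 and limma-voom also called 0 lower. St14, for the membrane serine protease matriptase, was at 19.2, 21.0 and 6.46 CPM in LiKM, against 0.674, 0.352 and 0.369 CPM in LiK (log2 fold change 5.05, SE 0.56, adjusted p = 0.0107). LiKM 3 was far below the other LiKM livers and still well above LiK. With 14, 7 and 9 counts in LiK, St14 did not reach the filter's level in every LiK library and was tested through its LiKM libraries. The share of partners called includes St14 and was not split by the filter. Anxa2, for an annexin that with S100a10 binds plasminogen, had 26.4, 36.6 and 58.1 CPM in LiKM, against 8.62, 9.31 and 11.9 CPM in LiK (log2 fold change 2.02, SE 0.30, adjusted p = 0.0197). The other called partners were Rhbdf1, which escorts Adam17 to the cell surface (0.80, SE 0.15), the hyaluronan receptor Cd44 (1.18, SE 0.20), Pcolce, the enhancer of procollagen C-proteinase (0.74, SE 0.17), the cysteine protease Ctss (1.19, SE 0.16) and the matricellular protein Thbs2 (1.72, SE 0.37).

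Some partners made in bulk by hepatocytes were not called. Pzp and Mug1, for protease traps of the macroglobulin family and the most abundant of the list, had log2 fold changes of −0.36 (SE 0.18, adjusted p = 0.308) and −0.38 (SE 0.24, adjusted p = 0.41). Plg, for plasminogen, was at 3196, 2708 and 3087 CPM in LiKM, against 4121, 3770 and 3394 CPM in LiK. All LiKM values of Plg were lower, without a call (log2 fold change −0.33, SE 0.15, adjusted p = 0.262). Plg was chosen after its values were seen. The omission of LiKM 1, LiKM 2 or LiKM 3 left 5, 1 and 4 partners called, and that of LiK 1, LiK 2 or LiK 3 left 0, 1 and 3.

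Calls depended on which library was left out, in the members as in the whole table. Without LiKM 1, LiKM 2 or LiKM 3, 4, 1 and 7 members were called higher, while calls over all genes numbered 376, 47 and 626, against 802 with all 6 libraries. Without LiK 1 or LiK 2, 0 members were called by edgeR, with 31 and 19 calls over all genes, and without LiK 3 there were 8 members and 311 genes. The 1 member called without LiKM 2 was Adam8. Against a 1.5-fold change, edgeR called 2 members, Adam8 and Adamts15.

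**Figure D5:**
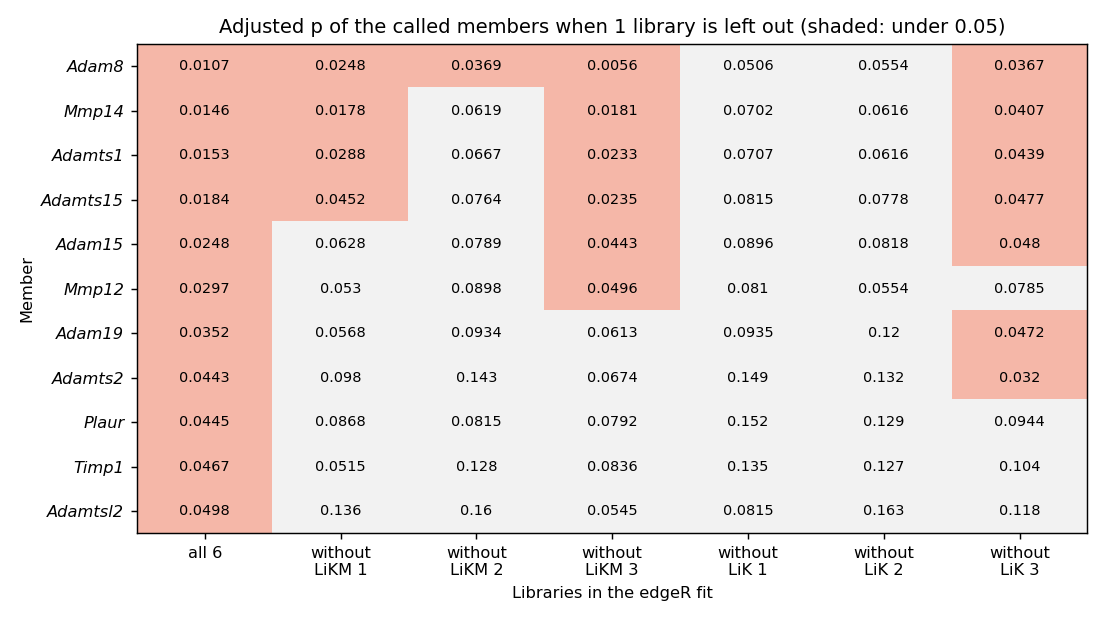
Adjusted p of the 11 called members in the fit of all 6 libraries and in 6 fits that each leave out 1 library, with shading under 0.05. The columns without LiK 1 and without LiK 2 hold no shaded cell, Adam8 is shaded in 4 of the 6 omissions, and Plaur, Timp1 and Adamtsl2 in none.

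Members also differed among LiKM livers. LiKM 3 held the highest LiKM value in 18 of the 43 members and the lowest in 18, against 12 and 9 for LiKM 2 and 13 and 16 for LiKM 1. The same was not counted over all genes tested, and LiKM 3 also stood apart over the whole table. These counts are therefore not read as particular to the members. Timp1, Plat, Plaur, Adamts6, Adamts9 and Adam19 were highest in LiKM 3, while Timp3, Mmp15, Mmp19, Adam8 and Adam23 were lowest there. Of the markers, the neutrophil sum was highest in LiKM 3 among LiKM livers, at 19.96 CPM against 6.77 and 9.30 CPM in LiKM 1 and LiKM 2, and the endothelial sum was lowest, at 238 CPM against 355 and 323 CPM. The macrophage and monocyte sum was also lowest in LiKM 3 (253 CPM, against 299 and 325 CPM), as was the stellate cell sum (670 CPM, against 730 and 692 CPM), while the cholangiocyte sum was highest there (234 CPM, against 111 and 207 CPM). Whether these move the members was not tested.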

How the data were processed

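Libraries of 6 livers came from a stranded messenger RNA kit, per the labels' protocols. What the authors deposited are raw counts per gene symbol, and the submitters' processing notes name featureCounts and FastQC 0.11.7. Aligner, genome build, annotation and strand setting: not given in the sources used here. Titles number the mice and give each its own code, so libraries were treated as separate animals. No 2 libraries of a genotype agreed within sampling noise (chi-square per gene 36.1 to 125).

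Counts were used as deposited. Genes passing edgeR's default expression filter were tested with the quasi-likelihood test of edgeR 4.0.16 in R 4.3.3 after TMM scaling (factors 0.903 to 1.11), with genotype as the only term. P-values were adjusted by Benjamini-Hochberg over all genes tested, and genes were called under 0.05. The common biological coefficient of variation was 22.3%. Standard errors come from the coefficient and its F statistic. Alternatives used other scalings, DESeq2 1.42.0, limma-voom 3.58.1, other filters, a test against a 1.5-fold change, a replicate block and the omission of each library. In the limma-voom fit each library had a quality weight, so that libraries departing from their group counted less. The edgeR script was tested on simulated counts with known answers, with changes set only in genes of higher counts. It recovered 53 of 100 2-fold and 95 of 100 4-fold changes, with 11 false calls. Scarce genes were given no change in it. Members and lists were chosen with earlier results of these data known. Named were all called members, the TIMPs and plasminogen activation genes, the leading members of each role, members too scarce to test, and called and most abundant partners. The role of ADAMs with and without protease activity was taken as background, since no protein sequences were used here. Exon lengths and overlaps come from GENCODE M21 and promoter windows from RefSeq, both on GRCm38, which may differ from the authors' annotation. Some genes of the lists are not reported here.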

Additional observations from a re-analysis of the deposited data

How the results depend on the processing

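DESeq2, limma-voom, library totals, upper-quartile scaling and no filter gave 14, 15, 12, 11 and 11 members higher and held all 11 reported calls. A filter that asks for 1 CPM in 3 libraries gave 10, with Timp1 no longer tested, and median-ratio scaling gave 10, without Adamtsl2. The edgeR test against a 1.5-fold change gave 2 members, 2 partners and 127 genes of the whole table. DESeq2 called 1 member lower and 1591 genes of the whole table, and limma-voom 1323 genes. Library totals moved the median of all genes by 0.16 on the log2 scale, so values under it are read relative to that shift. It turned the sign of Timp3 (0.074), Mmp19 (0.047) and Adam9 (0.0093). With its quality weights for libraries, limma-voom turned that of Adamts6 (−0.36), and none of these 4 was called. The cause was not tested.

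Leaving out 1 library gave 0 to 8 members called higher, 0 lower in each omission, 0 to 5 partners, and 19 to 626 genes of the whole table. Fewer samples remain in these fits. Signs turned within the ranges for Adamts14 (−0.098 to 0.57), Timp3 (−0.34 to 0.17), Mmp19 (−0.32 to 0.049), Adam4 (−1.05 to 0.060), Adamts6 (−0.89 to 1.29), Adamts13 (−0.022 to 0.14), Adamtsl4 (−0.021 to 0.35), Adam1a (−0.027 to 0.39) and Trp53 (−0.039 to 0.33), none of them called with all 6 libraries. With the replicate number as a block, 8 members were higher, without Adamts2, Plaur and Timp1, and 835 genes of the whole table were called. Same-numbered libraries correlated at 0.27, −0.0003 and 0.13 in their deviations from the group means, so the numbers were not taken as pairs, and LiKM 2 did not correlate best with its own number. Depth limits the scarce members most, and 15 of the 58 did not pass the expression filter.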
